A study of Mus musculus with 67 samples.

Results

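SoxC and Pou3f genes encode transcription factors of neural development, and the accessible chromatin assigned to their 7 loci was followed here from neuromesodermal progenitors to 4 types of ventral neural progenitor. The members are the elements, regions of open chromatin called from ATAC-seq reads, whose nearest gene in the deposited annotation is Sox4, Sox11, Sox12, Pou3f1, Pou3f2, Pou3f3 or Pou3f4. They number 60 of the 111638 elements with values. Sox11 has 34 of them, Pou3f1 13, Sox4 6, Sox12 3, Pou3f4 2 and Pou3f2 and Pou3f3 1 each, and a further 10 elements annotated to these genes were not analysed here.

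The study differentiated HM1 mouse embryonic stem (ES) cells into spinal cord progenitors and profiled sorted types by CaTS-ATAC, in which fixed cells are transposed, stained for intracellular transcription factors and sorted before their DNA is sequenced. All cells were grown without added SAG up to day 3, when NMPs, the neuromesodermal progenitors that can form spinal cord or paraxial mesoderm, were collected (3 samples). From day 3, retinoic acid was added at 100 nM to every culture together with the smoothened agonist SAG, which switches on the Sonic hedgehog (Shh) pathway, at 0, 10, 100 or 500 nM. SOX2-positive neural progenitors (NPs) were then sorted at days 4, 5 and 6 as p0-1 from 0 and 10 nM, p2 from 10 and 100 nM, and pMN and p3 from 100 and 500 nM SAG, in dorsal to ventral order of the domains they stand for. The 67 samples make 25 conditions of 2 or 3 replicates, and concentrations were pooled here for each cell type and day, giving 4 to 6 samples. HM1 is a single ES cell line, and the study describes replicates as independent differentiations, so samples of one number taken at 2 concentrations, or sorted as 2 types, may come from one differentiation. At day 6, the titles of pMN and p3 samples give only replicates 2 and 3, each at both concentrations. The fits and SDs count these as 4 samples per type.

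The SoxC proteins Sox4, Sox11 and Sox12 carry an HMG box that bends DNA and a C-terminal activation domain, and they are known for switching on neuronal genes, such as Tubb3, as progenitors stop dividing. The Pou3f proteins Pou3f1 (Oct6), Pou3f2 (Brn2), Pou3f3 (Brn1) and Pou3f4 (Brn4) bind octamer-like DNA through a POU domain and pair with Sox proteins on neural enhancers such as that of nestin. Most of these genes have a single exon in a wide non-coding neighbourhood, where distal enhancers are found.

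Values are normalized counts, reads in an element divided by the size factor of its sample, recovered from the deposited log2-scale table. Depth was between 9298160 and 29985325 reads in elements per sample. Summed over the elements of a marker gene, T and Cdx2 were highest in NMPs, Olig2 in pMN, Foxa2 in p3 and Dbx1 in p0-1 of day 6, and Pax6 at day 6 was lowest in p3 among the NPs. Tbx6, also a marker of NMPs, was not highest in them, with a sum of 778 in NMPs beside 857 in p0-1 and 827 in pMN of day 6. Irx3, taken as the marker of p2, was not highest in p2, with 14500 beside 15000 in p0-1 of day 6. The locus of Nkx2-2, which defines p3, was not analysed here. 2 libraries stand apart. The third replicate of p2 at day 6 from 100 nM SAG had a Foxa2 sum of 5948, where the other 5 p2 samples of that day had 2681 to 3763 and p3 had 10167 to 16340. The differences of p3 from p2 at day 6 are therefore given also without it. The third replicate of p0-1 at day 4 from 10 nM SAG was the highest of its group at the TSS elements of Sox11, Sox12 and Pou3f1, with 2297, 6158 and 2448 normalized counts, where the other 5 had 1377 to 1658, 3332 to 4258 and 865 to 1418. At the TSS elements of Sox11, Sox12 and Pou3f3, values that change without it are given beside them, and at that of Pou3f1 they are not.

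The 60 elements are unequally spread. The annotation places 52 of them between genes and 8 in exons, 40 lie upstream of the transcription start site (TSS), and all 21 that are over 100 kb from the TSS are annotated to Sox11. The nearest element of each gene spans the annotated TSS except for Pou3f2, whose only element is 9.6 kb downstream. Per kb of element, mean normalized counts over all samples were highest at the Sox12 TSS, at 1296, followed by the element 8.1 kb upstream of Sox12, at 841. The element 223.5 kb upstream of Sox11 reached 719.5 per kb and that at the Sox11 TSS 701. The TSS elements of Sox4, Pou3f3, Pou3f1 and Pou3f4 had 424, 397, 389 and 309.5 per kb, and the Pou3f2 element 229.

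**Figure D1:**
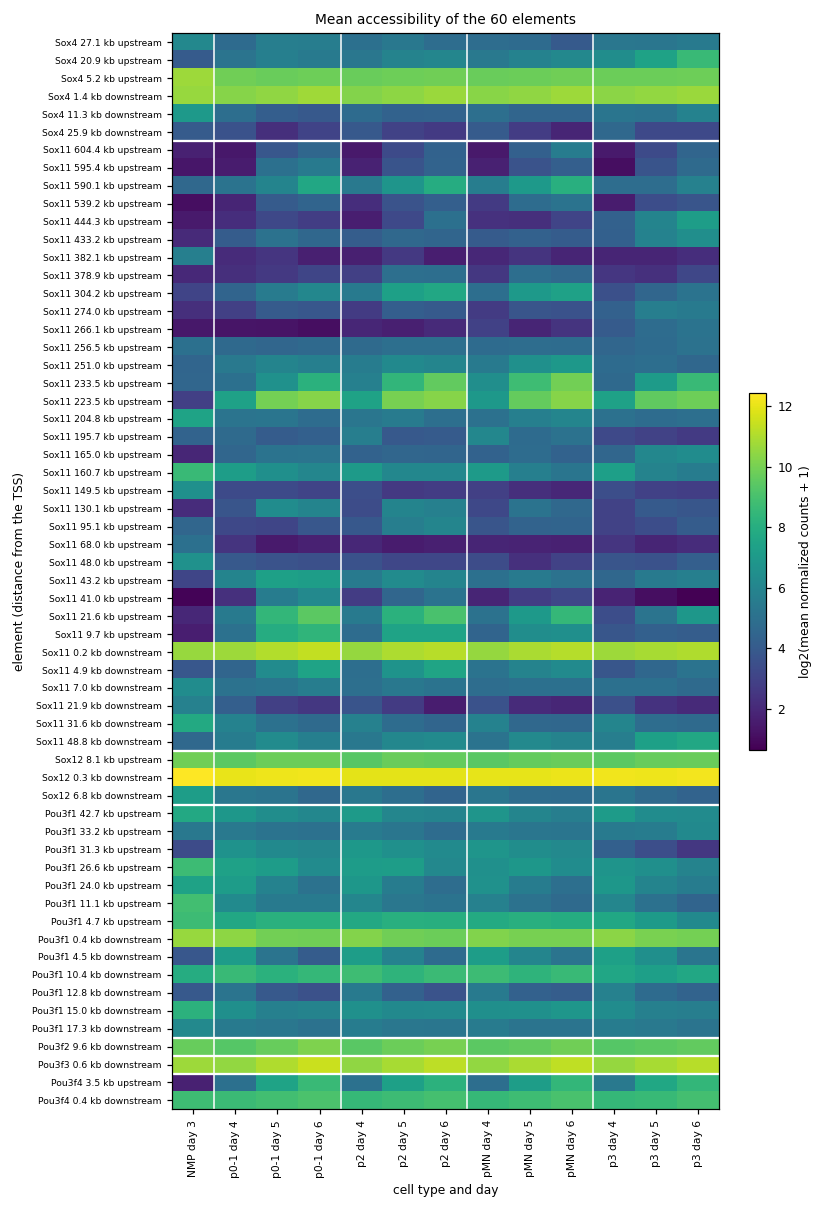
Mean accessibility of the 60 elements (rows, by gene and distance from the TSS) in NMPs and in each NP type and day (columns), as log2 of the mean normalized count plus 1. The TSS elements form even bright rows, and the distal rows of Sox11, Pou3f4 and Pou3f1 change between columns.

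Sequences are shown for 7 distal elements that carry the patterns described next, each as the central 300 bases on the plus strand of mm10, read from the GRCm38.p6 assembly of NCBI RefSeq. Capitals mark matches, on either strand, to 1 of 6 short motifs: SOX (AACAAT), octamer (ATGCAAAT), FOX (TGTTTAC), homeodomain (TAATTA), NKX2 (TNAAGTG) and E-box (CAGATG). None of these 7 elements overlaps a coding or untranslated exon in the reference annotation. The first rose in all 4 NP types, at Pou3f4.
Pou3f4 3.5 kb upstream, chrX:110810717-110811016: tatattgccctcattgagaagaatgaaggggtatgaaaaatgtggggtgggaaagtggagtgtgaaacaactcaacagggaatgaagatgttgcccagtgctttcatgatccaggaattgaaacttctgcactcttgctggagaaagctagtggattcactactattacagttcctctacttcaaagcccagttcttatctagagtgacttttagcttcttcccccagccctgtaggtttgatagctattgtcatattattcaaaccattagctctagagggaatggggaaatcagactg
The next pair lies in the far upstream flank of Sox11. The nearer of them rose in all 4 types and holds a SOX and an E-box match, and the farther was highest in pMN and p2 and holds 2 homeodomain matches.
Sox11 223.5 kb upstream, chr12:27566067-27566366: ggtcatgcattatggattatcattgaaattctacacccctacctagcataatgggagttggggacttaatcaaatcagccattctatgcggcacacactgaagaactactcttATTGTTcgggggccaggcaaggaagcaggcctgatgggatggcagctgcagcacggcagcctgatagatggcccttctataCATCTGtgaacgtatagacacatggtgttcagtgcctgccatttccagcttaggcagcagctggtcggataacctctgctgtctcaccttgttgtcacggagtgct
Sox11 233.5 kb upstream, chr12:27576093-27576392: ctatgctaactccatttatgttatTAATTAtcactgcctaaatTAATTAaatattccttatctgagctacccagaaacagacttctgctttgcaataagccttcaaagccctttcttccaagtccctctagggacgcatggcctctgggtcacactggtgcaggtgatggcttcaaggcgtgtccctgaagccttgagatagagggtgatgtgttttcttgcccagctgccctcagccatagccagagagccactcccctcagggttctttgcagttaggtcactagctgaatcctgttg
The element 9.7 kb upstream of Sox11 was low in p3 and holds a SOX match.
Sox11 9.7 kb upstream, chr12:27352269-27352568: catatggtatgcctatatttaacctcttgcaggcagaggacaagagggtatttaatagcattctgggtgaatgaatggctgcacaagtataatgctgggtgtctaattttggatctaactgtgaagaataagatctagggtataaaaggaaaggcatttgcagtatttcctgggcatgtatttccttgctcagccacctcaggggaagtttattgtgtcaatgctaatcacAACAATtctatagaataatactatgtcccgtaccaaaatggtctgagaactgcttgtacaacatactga
At 2 elements p3 had the highest counts. One, far upstream of Sox11, holds a FOX match, and the other, upstream of Sox4, holds none of the 6 motifs, like that of Pou3f4.
Sox11 444.3 kb upstream, chr12:27786908-27787207: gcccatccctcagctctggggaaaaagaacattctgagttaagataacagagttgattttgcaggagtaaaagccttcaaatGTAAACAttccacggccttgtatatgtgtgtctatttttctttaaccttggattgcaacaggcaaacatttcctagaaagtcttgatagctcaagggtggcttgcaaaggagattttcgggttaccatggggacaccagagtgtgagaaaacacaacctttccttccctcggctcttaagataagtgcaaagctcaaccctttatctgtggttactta
Sox4 20.9 kb upstream, chr13:28974438-28974737: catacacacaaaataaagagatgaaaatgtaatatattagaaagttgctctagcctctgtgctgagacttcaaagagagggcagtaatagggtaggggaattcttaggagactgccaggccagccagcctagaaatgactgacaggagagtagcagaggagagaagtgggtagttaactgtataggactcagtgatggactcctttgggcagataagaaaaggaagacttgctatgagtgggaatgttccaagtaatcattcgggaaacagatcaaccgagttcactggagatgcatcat
The last, upstream of Pou3f1, was near the level of NMPs in p3 and higher in the other NPs, and holds an E-box match.
Pou3f1 31.3 kb upstream, chr4:124626233-124626532: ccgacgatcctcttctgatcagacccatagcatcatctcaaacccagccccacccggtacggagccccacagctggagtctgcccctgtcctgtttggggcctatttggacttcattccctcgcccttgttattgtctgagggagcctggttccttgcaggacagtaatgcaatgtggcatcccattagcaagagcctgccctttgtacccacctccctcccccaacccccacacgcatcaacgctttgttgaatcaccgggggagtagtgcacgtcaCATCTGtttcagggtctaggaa

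Over the central 300 bases of all 111638 elements, 18.4% hold the SOX letters, 2.3% the octamer, 4.96% FOX, 7.85% homeodomain, 15.0% NKX2 and 25.7% the E-box. Among the 60 elements the counts were 6, 2, 3, 2, 6 and 17, and 28 windows hold none. No 2 matches in the sequences shown overlap. A match is a run of letters and was not tested for binding.

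The elements at the start sites of the SoxC genes were open in NMPs and stayed open. At the Sox11 TSS (chr12:27341174-27343941), NMPs had 1579, 1667 and 1508 normalized counts. The 4 NP types of day 4 had means of 1682 in p0-1, 1508 in p2, 1511 in pMN and 1652 in p3, and those of day 6 2582 ± 124 (SD, n = 5), 2322 ± 165 (SD, n = 6), 2259.5 ± 108 (SD, n = 4) and 2109 ± 68.7 (SD, n = 4) in the same order. Samples of day 6 lay above every NMP sample. The rise from day 4 to 5 was at most 0.44 on the log2 scale and had a limma adjusted p under 0.01 in p2 (2.83e-05) and pMN (5.27e-05), with 0.0131 in p0-1 and 0.0605 in p3. Without the third replicate of p0-1 at 10 nM, the p0-1 mean of day 4 was 1559 ± 117 (SD, n = 5), and the rise in p0-1 was 0.45 with a limma adjusted p of 2.47e-05. At the Sox4 TSS (chr13:28950634-28954044), NMPs had 1497, 1728 and 1545, and p2 had 1070.2 to 1261 (median 1214) at day 4 and 1460.1 to 1733 (median 1624) at day 6. The groups of day 4 and 6 in p2 do not overlap. The Sox12 TSS (chr2:152396083-152399435) had the largest counts of the 60 elements, 5484, 5808 and 5279 in NMPs and 3671 to 4253 (median 3996) in p2 at day 6. It was lower in the NPs of day 4 than in NMPs in p2 (log2 fold change -0.49, limma adjusted p = 3.89e-05) and pMN (log2 fold change -0.42, limma adjusted p = 8.9e-05). It did not pass 0.01 in p0-1 (0.0305) or p3 (0.031), and without the p0-1 library named above the value in p0-1 was -0.52 (limma adjusted p = 9.06e-05). Over all elements tested the median log2 fold change was -0.394, -0.507, -0.486 and -0.461 in p0-1, p2, pMN and p3.

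Among the Pou3f genes, the TSS element of Pou3f3 rose at each step from day 4. It lies at chr1:42693934-42698828 and also overlaps the non-coding gene Pantr1, as that of Pou3f1 at chr4:124656647-124659492 overlaps Gm2164. It had 1719, 1716 and 1558 in NMPs, a median of 1450.4 in p0-1 at day 4, and 3053, 2479, 2812, 3322 and 2709.9 in p0-1 at day 6. The largest step was 0.48 on the log2 scale (0.59 without that p0-1 library), with limma adjusted p-values from day 4 to 5 of 0.00322 in p0-1, 0.000118 in p2, 3.34e-05 in pMN and 0.00914 in p3. From day 5 to 6 they were 0.00172, 0.000666, 0.0012 and 0.0067 in the same order. Pou3f3 and Pou3f2 are both known from upper-layer cortical neurons. The Pou3f2 element (chr4:22476977-22480528) had 916, 1059.7, 1153, 1123 and 1405 in p0-1 and 869, 793, 753 and 705 in p3 at day 6, groups that do not overlap (log2 fold change -0.54, limma adjusted p = 0.00375), and its lower level in p3 than in p2 had an adjusted p of 0.00518 by limma. Pou3f1, which acts early in neural commitment of pluripotent cells, went the other way, from 1644, 1567 and 1439.9 at its TSS in NMPs to 852, 884, 1008, 1078 and 904 in p0-1 and 819.7 to 966 (median 875) in p2 at day 6. Of the 8 steps between successive days in the 4 NP types, none of the TSS element of Pou3f1 had a limma adjusted p under 0.01, and the lowest was 0.0143. From NMPs to day 4 the limma adjusted p was 0.00932 in pMN (log2 fold change -0.38). It was 0.394 in p0-1 with the p0-1 library named above included, 0.0209 in p2 and 0.109 in p3. The Pou3f4 TSS element (chrX:110814117-110815525) had 476, 492 and 355 in NMPs and 455, 456, 552 and 468 in p3 at day 6. An element was called where its adjusted p was below 0.01 and its log2 fold change beyond 2 in either direction. None of these 7 elements was called in the 30 comparisons between cell types and days, by limma.

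**Figure D2:**
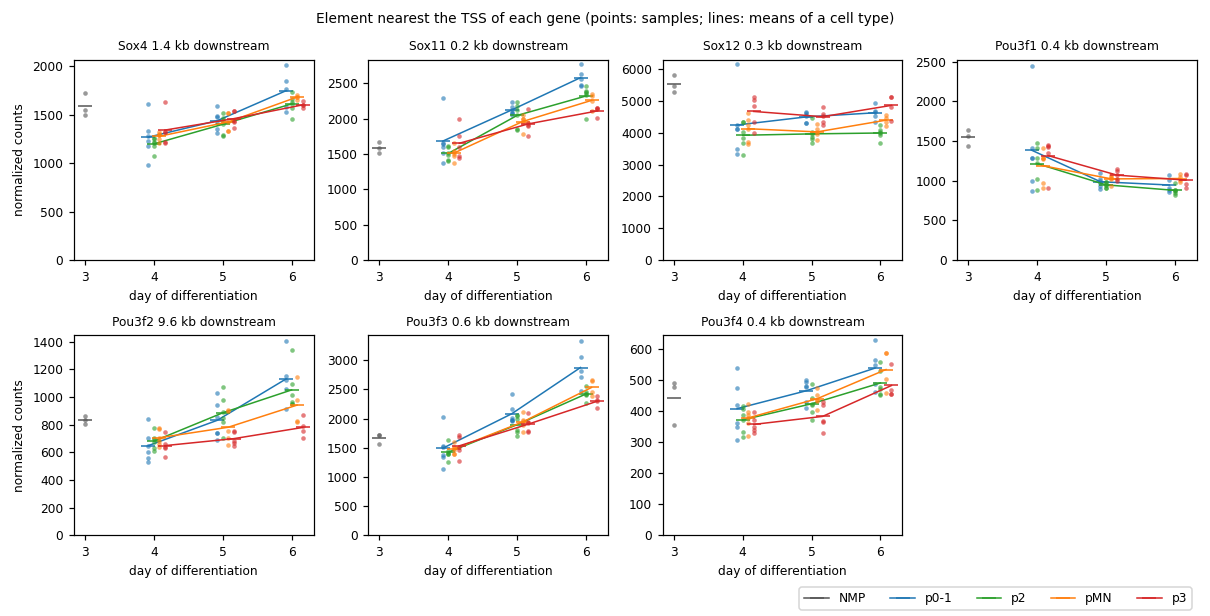
Normalized counts (y axis, from 0) of the element nearest the TSS of each gene against day of differentiation. Points are samples, short bars are means, and lines join the means of a cell type. From day 4 to 6 counts rise at Sox11, Pou3f3 and Pou3f2, where p3 at day 6 overlaps NMPs, and Pou3f1 is lower at days 5 and 6 than in NMPs.

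Between NMPs and the NPs of day 4, 20 members had means over 100 normalized counts, the minimum for a test, and 5 of them were called in at least 1 of 4 comparisons, 2 higher and 3 lower in NPs. In these comparisons 28.7% of all elements tested were called. The median log2 fold change of the members was -0.37, -0.48, -0.45 and -0.38 in p0-1, p2, pMN and p3, near the medians over all elements given above, and 5 members were called also with each sample centred on its median. A bulk ATAC-seq value does not tell a larger share of cells with an open element from a wider opening in each cell.

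The element 223.5 kb upstream of Sox11 (chr12:27565740-27566692) went from near 0 to open within a day. NMPs had 10.9, 4.05 and 4.31 normalized counts, and p3 at day 4 had 220.0, 118, 163, 201 and 127. In p0-1 and p2 of day 4 the samples ranged from 82.2 to 295 (median 144) and from 97.3 to 303 (median 152). The groups do not overlap, and the VST difference, on the log2 scale of the deposited values, was 3.40 ± 0.269 (SE) in p3 (log2 fold change 4.49, limma adjusted p = 5e-09). In pMN, with 76.8 to 177 (median 120.2), the mean over the samples compared was under the minimum for a test. In the opposite direction, the element 31.6 kb downstream of Sox11 (chr12:27309788-27312535) fell from 223, 209 and 248 in NMPs to 37.9 to 72.5 (median 54.9) in p2 (log2 fold change -2.02, limma adjusted p = 5.25e-07). Its log2 fold change was -1.97 in p0-1, -1.96 in pMN and -1.80 in p3, just short of the threshold, and leaving out p2 samples of day 4 (replicate 1 at 100 nM, or replicate 1 or 3 at 10 nM) took the call in p2 to between -1.98 and -1.93.

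At Pou3f1, elements moved both ways. The element 11.1 kb upstream (chr4:124644967-124648090) had 513, 496 and 392 normalized counts in NMPs and 78.7, 60.7, 61.8, 68.8 and 61.5 in p3 at day 4, and it fell in all 4 NP types, with log2 fold changes of -2.57, -2.83, -3.05 and -2.80 in p0-1, p2, pMN and p3 and a largest limma adjusted p of 1.08e-07. The element 26.6 kb upstream (chr4:124630087-124631961) fell from 408, 395 and 447 in NMPs to 81.6 to 106 (median 95.3) in pMN (log2 fold change -2.14, limma adjusted p = 6.2e-10). In the annotation of the reference both overlap the non-coding gene Gm2164, which runs along the upstream flank of Pou3f1. The element 4.5 kb downstream of Pou3f1 (chr4:124661908-124662297) rose for a short time. It had 14.5, 8.09 and 17.2 in NMPs, 119, 189.6, 199, 139 and 169 in p3 at day 4, 87.0, 101, 80.0, 89.6 and 94.7 in p3 at day 5 and 42.9, 42.7, 33.5 and 25.2 in p3 at day 6. The rise over NMPs was called in all 4 types of day 4, with log2 fold changes of 3.34, 3.36, 3.36 and 3.52 and adjusted p-values (limma) of at most 1.19e-07. The drop from day 4 to 5 was smaller, -1.31 on the log2 scale in p2 (limma adjusted p = 7.96e-06) and -1.17 in pMN (limma adjusted p = 4.66e-06).

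From day 4 to 5, 5 of 26 members tested were called, all of them higher at day 5, beside 7.11% of all elements tested. They are the element upstream of Pou3f4 and 4 upstream of Sox11. At Pou3f4, which encodes Brn4, the element 3.5 kb upstream (chrX:110810217-110811516) had 2.42, 1.35 and 3.23 normalized counts in NMPs. In p3 it had 36.3, 34.1, 42.1, 52.6 and 40.5 at day 4, 239, 183, 208, 203 and 187 at day 5 and 368, 386, 348 and 291 at day 6. In p0-1 it ranged from 10.6 to 46.5 (median 35.4) at day 4 and from 131 to 223 (median 186) at day 5, and had 376, 401, 411, 429.9 and 364 at day 6. The samples of the 3 days overlap in neither type. The rise from day 4 to 5 was called in p0-1 (log2 fold change 2.49, limma adjusted p = 5.11e-06) and p3 (log2 fold change 2.28, limma adjusted p = 1.5e-07). In p2 and pMN the mean over days 4 and 5 was under the minimum, with 32.4 and 162 in p2 and 29.4 and 147 in pMN. Among the 4 types of day 6 the means were 396 in p0-1, 350.1 in pMN, 348 in p3 and 295 in p2, in falling order, and the samples of neighbouring types in that order overlap. The annotation of the reference also places this element in the body of Gm44593.

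At Sox11, the element 223.5 kb upstream was called from day 4 to 5 in each NP type, with log2 fold changes of 2.60, 2.58, 2.69 and 2.17 in p0-1, p2, pMN and p3 and limma adjusted p-values of at most 1.23e-06. It reached 1193, 1331, 1081 and 1356 in pMN and 966, 892, 975 and 824 in p3 at day 6. Its neighbour 10 kb farther out, 233.5 kb upstream (chr12:27575438-27577047), rose in p2 (log2 fold change 2.61, limma adjusted p = 2.56e-06) and pMN (log2 fold change 2.30, limma adjusted p = 2.88e-08). The elements 9.7 and 21.6 kb upstream were called in p0-1, with log2 fold changes of 2.87 and 2.95 (limma adjusted p = 5.26e-06 and 1.34e-05), and in p2, with 2.68 and 2.70 (limma adjusted p = 3.8e-07 and 3.63e-06). Marker loci of neurons moved over the same days, though not all of them in each type. The sum over the 15 elements of Elavl4 was 393 to 508 in NMPs, 1302 to 1901 in p3 at day 4 and 2117 to 3296 in p3 at day 6, that of the 4 Elavl3 elements 2029 to 2254, 1279 to 1550.0 and 1769 to 2211, and that of the 2 Tubb3 elements 1615 to 2182, 758 to 1204 and 1067 to 2068. From day 4 to 5 the mean Elavl4 sum went from 1129 to 1835 in p0-1, from 1573 to 2874 in p2 and from 2012 to 4065 in pMN. That of Elavl3 went from 1284 to 1321 in p0-1, from 1283 to 1815 in p2 and from 1511 to 2223.5 in pMN. That of Tubb3 went from 922 to 963 in p0-1, from 937 to 1677 in p2 and from 861 to 1525 in pMN. The part of neurons that passed the SOX2 gate in the Sox11 and Pou3f4 values was not tested.

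From day 5 to 6, 0 of 25 members tested were called, beside 0.624% of all elements, while 19 had an unadjusted limma p under 0.05 in at least 1 type, and limma voom on the recovered reads also called 0. Counts of unadjusted p-values, here and below, are pooled over the comparisons made. Their share over all elements was not counted, so they cannot set the members apart. At a fold change above 2, 5 were called, beside 8.35% of elements, 4 higher and 1 lower at day 6. The element 233.5 kb upstream of Sox11 was among them in all 4 types. Its means at days 5 and 6 were 96.6 and 288 in p0-1, 338 and 776 in p2, 443 and 977 in pMN, and 137 and 395 in p3. Pou3f4 3.5 kb upstream still rose in p0-1 (log2 fold change 1.13, limma adjusted p = 0.000326) and pMN (log2 fold change 1.25, limma adjusted p = 0.000209). The others were the elements 590.1 kb upstream of Sox11 and 20.9 kb upstream of Sox4, which rose, and 26.6 kb upstream of Pou3f1, which fell in p2 (log2 fold change -1.09, limma adjusted p = 0.000974).

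**Figure D3:**
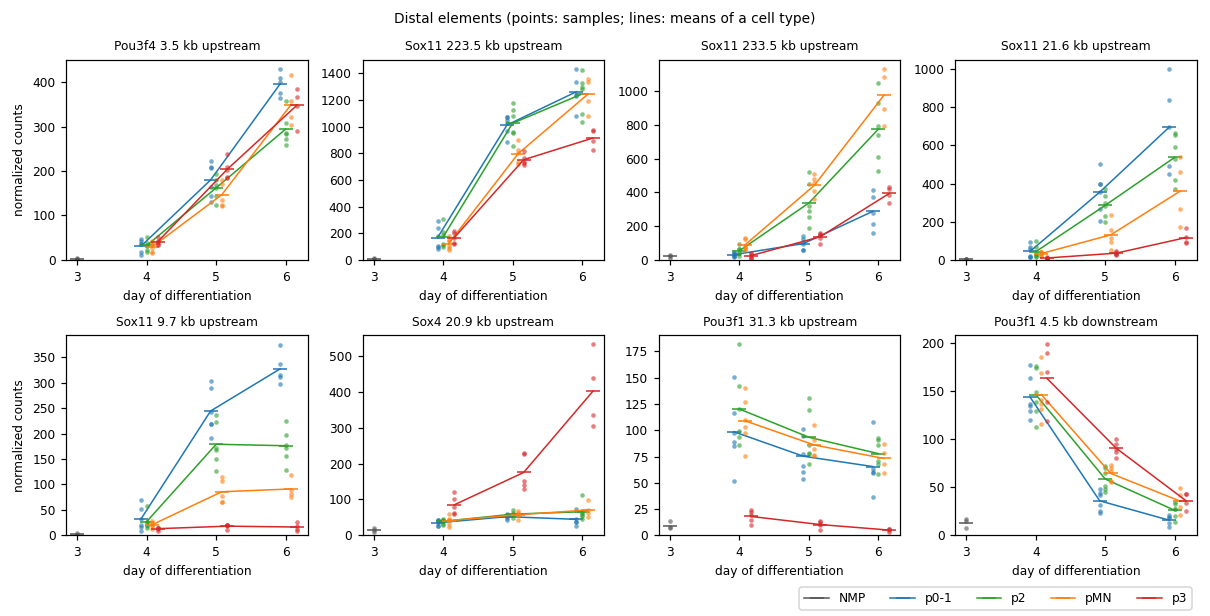
Normalized counts (y axis, from 0) of 8 distal elements against day of differentiation, with points for samples, short bars for means and lines joining the means of a cell type. The elements of Pou3f4 and 223.5 kb upstream of Sox11 rise in all 4 NP types, those 9.7 and 21.6 kb upstream of Sox11 stay lowest in p3, and Sox4 20.9 kb upstream is highest in p3.

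Comparing p3, the most ventral NP type, with p0-1, p2 and pMN of the same day, 0 of 17 members tested were called at day 4, where 2.35% of all elements were. Limma voom called 0 as well, and 4 members had an unadjusted limma p under 0.05. At day 5, 2 of 20 were called, both lower in p3, beside 10.1% of all elements, and at day 6, 6 of 22, with 5 lower and 1 higher in p3, beside 16.9%. The 5 lower ones are all at Sox11. Not every Sox11 element stayed low in p3. That 48.8 kb downstream, which was not called, had p3 means of 50.9, 162 and 207 at days 4, 5 and 6. Its log2 fold change from day 4 to 5 was 1.65 (limma adjusted p = 9.29e-05). The member medians at day 6 were -0.29, -0.14 and -0.12 on the log2 scale against p0-1, p2 and pMN, beside -0.087, 0.01 and 0.004 over all elements tested. At day 5 the element 304.2 kb upstream of Sox11 had a mean under the minimum in p3 and p2. Without replicate 1, 2 or 3 of p3 at 100 nM or 2 or 3 at 500 nM, or without replicate 3 of p2 at 100 nM, it was called lower in p3, at -2.99 to -2.73, which made 3 calls. Neuronal Elavl4 at day 6 was 2117 to 3296 in p3, 1359 to 2517 in p0-1, 3012 to 3371 in p2 and 4446 to 4962 in pMN as a sum over its elements. Mean Elavl3 sums were 1978.5, 1724.5, 2527 and 2973 in the same order, and those of Tubb3 1455, 1320, 2218 and 1825. The part of these loci in the differences was not tested.

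The element 9.7 kb upstream of Sox11 (chr12:27351872-27352965) had the largest difference among the members tested. At day 6, p3 had 26.4, 19.3, 8.08 and 11.7 normalized counts, p0-1 297, 375, 315, 311 and 337, pMN 89.6, 119, 75.2 and 80.6, and p2 129 to 225 (median 175). No samples of the 4 types overlap, in the order p0-1, p2, pMN and p3 from the highest. The difference of p3 was called against p0-1 at day 5 (log2 fold change -3.69, limma adjusted p = 2.73e-09) and day 6 (log2 fold change -4.24, limma adjusted p = 3.69e-07). Against p2 it was called at day 5 (log2 fold change -3.24, limma adjusted p = 3.23e-08) and day 6 (log2 fold change -3.35, limma adjusted p = 1.36e-06), while p3 and pMN together had a mean under the minimum. The element 21.6 kb upstream (chr12:27363813-27364730) had 168, 91.5, 120.1 and 86.4 in p3 and 492, 451, 999.9, 838 and 695 in p0-1 at day 6 (log2 fold change -2.57, limma adjusted p = 2e-05). In p3 it still rose over the days, from 4.04, 7.58, 11.8, 11.1 and 14.2 at day 4. Against p2 its log2 fold change was -2.19 and against pMN -1.62, the latter with a limma adjusted p of 0.00611 and short of the fold threshold.

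3 more Sox11 elements were called lower in p3 at day 6, each against some of the other types only. That 4.9 kb downstream (chr12:27337554-27338021), which lies in the 3′ part of the Sox11 transcript as annotated in the reference, had 69.3, 26.4, 24.3 and 19.4 in p3 and 147, 62.5, 296, 246 and 137 in p0-1 (log2 fold change -2.32, limma adjusted p = 0.00297). Without replicate 3 of p3 at 100 nM, or replicate 2 or 3 at 500 nM, this adjusted p was between 0.0106 and 0.0112, and limma voom gave 0.0261. Against p2 the log2 fold change was -2.36 (limma adjusted p = 0.000213). In pMN this element had 136, 46.0, 95.2 and 29.2, which overlap p3. That 304.2 kb upstream (chr12:27646475-27647405) had 47.8, 19.3, 45.0 and 25.2 in p3 and 93.5 to 276 (median 236) in p2 (log2 fold change -2.59, limma adjusted p = 5.26e-05). It was also low in p0-1, with 35.3, 54.5, 90.4, 76.9 and 83.3, which overlap p3. That 590.1 kb upstream (chr12:27932335-27933299) had 75.8, 36.6, 76.2 and 35.0 in p3 and 384, 194, 322 and 192 in pMN (log2 fold change -2.27, limma adjusted p = 0.000356). Its difference from p2 (log2 fold change -2.10, limma adjusted p = 0.00062) was -1.95 without replicate 3 of p3 at 100 nM and -1.94 without replicate 3 at 500 nM, short of the threshold. Within replicate 2 and within replicate 3, the log2 ratio of p3 over p2 was -2.05 and -2.29 at 4.9 kb downstream, and that of p3 over pMN was -2.20 and -2.40 at 590.1 kb upstream.

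1 called element was higher in p3. It lies 20.9 kb upstream of Sox4 (chr13:28973931-28975243), a gene known for its part in progenitor survival and neuronal differentiation. It had 8.48, 16.2 and 21.5 in NMPs, and in p3 60.6, 62.6, 78.9, 102 and 121 at day 4, 226, 140.1, 151, 129 and 229 at day 5 and 336, 437, 304 and 532 at day 6. At day 6, p0-1 had 37.7, 73.4, 27.0, 38.4 and 46.5 and pMN 52.0, 71.4, 61.1 and 98.1, both below every p3 sample of days 5 and 6. P2 had 45.7 to 112 (median 60.1), and the highest of these is the library with the high Foxa2 sum. The log2 fold change of p3 at day 6 was 3.15 against p0-1, 2.59 against p2 and 2.49 against pMN, with limma adjusted p-values of 3.96e-06, 3.64e-06 and 2.58e-05. Without that p2 library the value against p2 was 2.81, and the others called against p2 were -3.32 at 9.7 kb, -2.28 at 21.6 kb, -2.48 at 4.9 kb, -2.75 at 304.2 kb and -2.27 at 590.1 kb of Sox11. The Foxa2 sum at day 6 differed by replicate in p3, with 10909 and 10167 in replicate 2 and 15020 and 16340 in replicate 3. The Sox4 element in p3 was also higher in replicate 3, with 437 and 532 beside 336 and 304 in replicate 2. In pMN it had 71.4 and 98.1 in replicate 3 and 52.0 and 61.1 in replicate 2. The Sox4 ratio of p3 over pMN was 2.48 within replicate 2 and 2.50 within replicate 3 on the log2 scale. A link to Foxa2 was not tested. The locus of Shh, a floor plate marker, was also highest in p3 at day 6, with a mean sum of 3690 beside at most 1180 in the other NPs of that day. The sort for p3 took SOX2-positive, NKX2.2-positive cells without OLIG2. The part of floor plate cells in the p3 values was not tested.

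Pou3f1 had 2 elements that were lower in p3 by less than the threshold for calls, named after their values were seen. At 4.7 kb upstream (chr4:124652341-124653648), p3 had 184, 203, 192, 176 and 244 at day 4, 126, 134, 150.4, 137 and 129 at day 5 and 80.8, 84.4, 67.0 and 68.0 at day 6, while pMN at day 6 had 204, 290.1, 211 and 277 (log2 fold change -1.70, limma adjusted p = 4.17e-05). The other types had means of 212 (p0-1), 219 (p2) and 228 (pMN) at day 4 and 281, 263 and 245 at day 6. In a test of the change from day 4 to 6 between types, added after the values were seen, p3 differed from p0-1 by -1.81 (limma adjusted p = 6.68e-05), from p2 by -1.66 (limma adjusted p = 6.47e-06) and from pMN by -1.51 (limma adjusted p = 0.000207) on the log2 scale. Of all elements, 3.9%, 2.36% and 2.35% had a limma adjusted p under 0.01 with a difference beyond 2, which this element did not reach. The share of all elements at differences of its size was not counted. At 10.4 kb downstream (chr4:124667449-124668606) the lower level was there at day 4, with 169.6, 209, 214, 157 and 241 in p3 and 301 to 610.0 (median 399.6) in p2 (log2 fold change -1.14, limma adjusted p = 0.000205). At day 6, p3 had 232, 235, 189 and 186 and pMN 351, 509.9, 292 and 432 (log2 fold change -0.91, limma adjusted p = 0.0027).

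**Figure D4:**
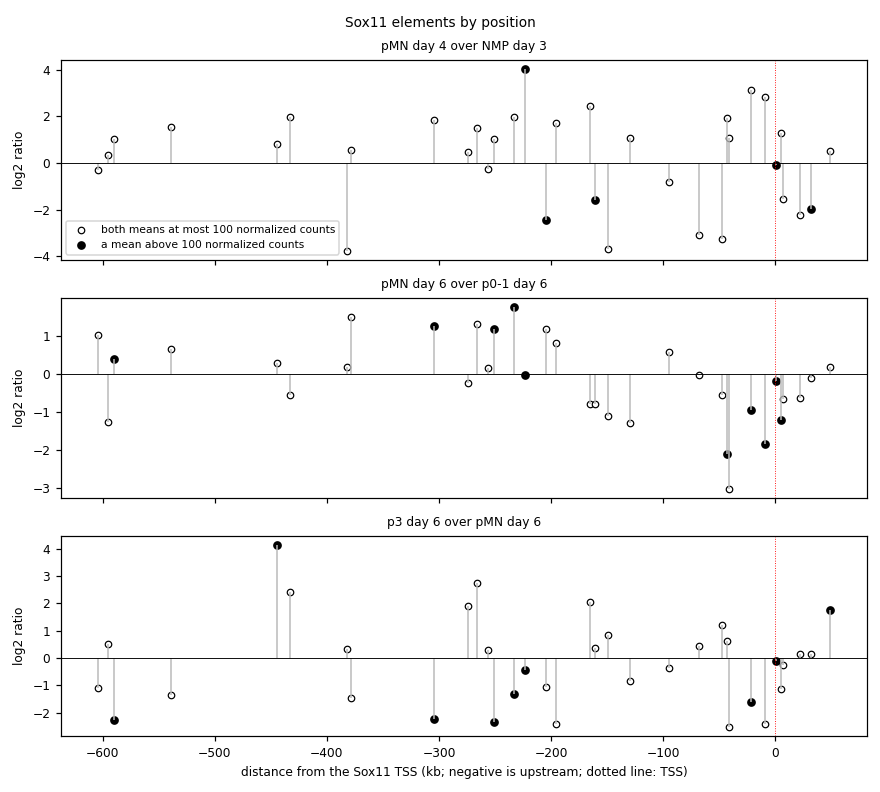
Log2 ratio of mean normalized counts plus 1 (y axis) at the 34 Sox11 elements against distance from the Sox11 TSS (x axis, kb), for pMN at day 4 over NMPs, pMN over p0-1 at day 6 and p3 over pMN at day 6. Filled points have a mean above 100 in a group, and the scale of the y axis differs between panels. Of the Sox11 elements with a mean above 100 in pMN or p3, those 444.3 kb upstream and 48.8 kb downstream are higher in p3.

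Among p0-1, p2 and pMN, 0 of 18 members tested were called at day 4 (0.492% of all elements), 1 of 20 at day 5 (1.93%) and 0 of 19 at day 6 (3.31%). At days 4 and 6 limma voom called 0 as well, and 3 and 10 members had an unadjusted limma p under 0.05. The call was the element 233.5 kb upstream of Sox11, which in p0-1 ranged from 56.7 to 141 (median 98.5) at day 5 and in pMN had 508, 409, 479, 364 and 456 (log2 fold change 2.19, limma adjusted p = 2.94e-06), without overlap. At day 6, p0-1 had 157, 215, 375, 276 and 417 and pMN 898, 1083, 795 and 1133 (log2 fold change 1.76, limma adjusted p = 0.000514). The mean level rose in the order p0-1, p3, p2 and pMN at day 6, with p0-1 and p3 overlapping, as did p2 and pMN. The Elavl4 sum was also higher in pMN than in p0-1, with 3421 to 4650 beside 1373 to 2337 at day 5 and 4446 to 4962 beside 1359 to 2517 at day 6, when p3 had 2117 to 3296 and p2 3012 to 3371. Mean Elavl3 sums at day 6 were 1724.5, 1978.5, 2527 and 2973 in p0-1, p3, p2 and pMN. Those of Tubb3 were 1320, 1455, 2218 and 1825 in the same order, highest in p2. The part of these neuronal loci in the values was not tested. Nearer to Sox11, p0-1 was the higher of p0-1 and pMN. The element 9.7 kb upstream had a log2 fold change of -1.83 in pMN against p0-1 at day 6 (limma adjusted p = 2.94e-05), and the element 43.2 kb upstream had -1.86 at day 5 (limma adjusted p = 1.62e-05). Both are short of the threshold for calls. Leaving out replicate 1 of p0-1 at 10 nM on day 5 added the element 304.2 kb upstream (p2 over p0-1, 2.01), which made 2 calls at day 5. Leaving out replicate 2 or 3 of pMN at 100 nM or replicate 3 at 500 nM on day 6 added that at 43.2 kb (pMN over p0-1, -2.42 to -2.01).

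In 12 comparisons of 2 concentrations within a cell type and day, at a fold change above 2, 0 of 31 members tested were called by limma or by voom, where 0.00203% of all elements were. An unadjusted limma p under 0.05 was found for 7 members in at least 1 of the 12 comparisons. A fit blocked on replicate number called 1, the element 4.9 kb downstream of Sox11, higher at 10 than at 0 nM in p0-1 at day 6 (log2 fold change 1.10, limma adjusted p = 1.09e-06 with the numbers of the titles and 0.000642 with those of the descriptions). That element had 296, 246 and 137 in replicates 1, 2 and 3 at 10 nM, and 147 and 62.5 in replicates 2 and 3 at 0 nM. The fold change is that of the means of all these samples, though by the titles replicate 1 had no partner at 0 nM. By the descriptions the 0 nM samples pair with replicates 1 and 2 at 10 nM, so the 2 adjusted p-values rest on different pairs. The share of all elements called by the blocked fit is not given.

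28 of the 60 elements were under the minimum mean in each of the 30 comparisons, and 13 of the 32 that were tested at least once were called. With no minimum, 24 members were called between NMPs and day 4 (40.1% of all elements), 12 from day 4 to 5 (11.6%) and 0 from day 5 to 6 (1.13%). Between p3 and the other types there were 5 at day 4 (4.37%), 12 at day 5 (15.6%) and 15 at day 6 (21.6%), and among the other types 0, 4 and 3 (0.705%, 4.19% and 5%). With the minimum and a fold change beyond 2, the counts were 8 between NMPs and day 4 (54.5%) and 12 from day 4 to 5 (25.3%). They were 1, 7 and 10 for p3 at days 4, 5 and 6 (11.4%, 27% and 34.9%) and 0, 5 and 3 among the others (3.73%, 11.6% and 14%). 4 elements of low mean, named after their values were seen, show cell-type differences. The element 31.3 kb upstream of Pou3f1 was high in 3 of the 4 types. NMPs had 13.3, 6.74 and 7.54, pMN of day 4 75.5 to 141 (median 107), and p3 of day 4 24.2, 19.0, 14.5, 10.1 and 22.5. At day 6 p3 had 3.30, 5.09, 5.77 and 5.83 and pMN 87.0, 77.9, 68.1 and 59.6, with a log2 fold change of -3.63 (limma adjusted p = 1.47e-06 with no minimum). The element 444.3 kb upstream of Sox11 was the reverse, with 72.6, 156, 88.9 and 268 in p3 and 3.59, 8.45, 1.00 and 16.3 in pMN at day 6 (log2 fold change 4.14, limma adjusted p = 6.03e-05 with no minimum). Its neighbour 433.2 kb upstream had 84.3, 40.7, 60.7, 50.6 and 56.5 in p3 and 22.6, 20.2, 19.5, 13.2 and 18.0 in pMN at day 5 and 49.5, 122, 47.4 and 137 and 3.59, 29.1, 8.02 and 22.2 at day 6. P0-1 ranged from 17.3 to 59.9 at day 5 and from 4.23 to 75.3 at day 6, and p2 from 8.35 to 62.4 at day 6, and both overlap p3. At day 6 replicate 3 had more than replicate 2 in each of the 8 conditions. The element 41.0 kb upstream of Sox11 was graded across the types at day 6, with 51.8, 97.2, 77.8, 66.4 and 68.7 in p0-1, 22.1 to 48.3 (median 36.0) in p2 and 14.3, 5.63, 4.01 and 8.17 in pMN, and p3 had 0 in 3 samples, where a count of 0 allows up to 3 reads, and 2.31 in the fourth. With no minimum, the log2 fold change of p3 against p0-1 at day 6 was 4.43 at 444.3 kb upstream, larger in size than that at 9.7 kb. The 41.0 kb element differed by more still, lower in p3, with p3 counts near 0.

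Loci of 19 genes that work with these factors or are regulated by them were read in the same fits. They are Sox1, Sox2, Sox3, Sox21, Nes, Fabp7, Dll1, Tubb3, Dcx, Tead2, Neurog1, Neurog2, Neurod1, Prox1, Pou5f1, Pou2f1, Pou2f2, Pou4f1 and Pou6f1. Between NMPs and day 4, 12 of 52 of their elements were called. The 11 that were higher belong to the SoxB genes Sox1, Sox2 and Sox3, which keep cells as neural progenitors, and to Dll1 and Neurog2, and the 1 that was lower is at the TSS of Pou5f1, which encodes Oct4 of pluripotent cells, with means of 1513 in NMPs and 76.8 in pMN. From day 4 to 5, 2 of 58 were called, both higher, at Prox1 and Sox3. Between p3 and the other types at day 6, 12 of 58 were called, 11 lower in p3, at Dcx, Dll1, Neurod1, Neurog1, Neurog2, Sox1 and Sox3, and 1 higher, at Pou2f1. From day 5 to 6, 1 of 59 was called, higher at Pou2f1. At day 5, 5 of 55 were lower in p3 than in another type, at Neurod1, Neurog2, Sox1 and Sox3. The shares of all elements called are those given above for the members.

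Genes whose accessibility followed the members most closely were ranked among 3506 genes with at least 3 elements above the minimum, by Pearson's r of the mean VST over the 25 conditions, which share libraries and are given as a description. The mean profile of the 6 Sox11 elements above the minimum over all samples was most like those of Moxd1 (r = 0.992), Neo1 (0.991) and Cpa5 (0.987). The mean profile of the 2 Pou3f4 elements, which were not compared singly, was most like those of Parp16 (0.985), 4932412D23Rik and Dtx4 (0.984 each). For Sox4 the closest was Scd2 (0.936), for Pou3f1 Psme4 (0.935), for Pou3f2 Npc2 (0.918) and for Sox12 Elmsan1 (0.915). The profiles of Sox12 and Sox4 spanned 0.504 and 0.72 of a log2 unit, against 3.16 for Sox11, so their likeness rests on small changes.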

How the data were processed

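ATAC-seq was performed on 67 samples of HM1 mouse ES cells under directed differentiation. Per the study's methods, the authors aligned reads to mm10, called peaks with MACS, kept consensus peaks found in at least 2 replicates, counted reads per peak and deposited log2-scale values from the variance-stabilizing transformation (VST) of DESeq2. Here the VST was inverted to normalized counts and whole reads: 100% of values below 1000 reads were whole within 1e-06. Elements were taken by the nearest gene of the deposited peak annotation, and 15 samples carry different replicate numbers in title and description.

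Limma 3.58.1 (R 4.3.3, with trend) was fitted to the VST of all elements whose mean exceeded 100 normalized counts in the samples compared, with Benjamini-Hochberg adjustment over them. The log2 fold change is that of mean normalized counts plus a pseudocount of 1. SAG comparisons used a fold change beyond 2. Because the deposited values are on a log2 scale, limma replaced the count test of the study. The scripts were tested on simulated data.

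Elements were named where nearest to a TSS, where their change was the largest of a gene between NMPs and day 4, between days 4 and 5 in p3 or pMN, or between p3, pMN and p0-1 at day 6, and other elements were named after their values were seen. The members and lists were chosen with earlier results of these data known. Alternatives were the VST scale, thresholds, no minimum, a replicate block, median centring, a pseudocount of 5, limma voom on the recovered reads and leaving out each sample. Same-numbered samples deviated together in every pair in 3 of 3 comparisons of p3 at day 5, of the other types at day 4 and at day 5, in 6 of 6 of SAG with 3 pairs, and in both of days 5 and 6 with 3 pairs. The study describes replicates as independent differentiations. Columns of the authors' peak annotation other than gene, distance, position and the class of region (such as intergenic or exon) were not used. Some genes of the lists are not reported here.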

Additional observations from a re-analysis of the deposited data

Results flagged for a closer look

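Within a cell type and day of 4 to 10 samples, the highest or lowest sample of a named element was marked where its gap to the next one was large for the range of the group. There were 312 such groups, 19 were marked, and chance marks about 1 in 20, which is 15.6 of these. The cause of a stray sample was not tested.

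5 of the marks fall on the library with the high Foxa2 sum. Sox4 20.9 kb upstream had 112 normalized counts in replicate 3 of p2 at day 6 (100 nM SAG), above the 45.7 to 63.8 of the other samples. Sox11 444.3 kb upstream had 96.1 normalized counts in replicate 3 of p2 at day 6 (100 nM SAG), above the 3.26 to 30.5 of the other samples. Sox11 433.2 kb upstream had 62.4 normalized counts in replicate 3 of p2 at day 6 (100 nM SAG), above the 8.35 to 27.2 of the other samples. Sox11 0.2 kb downstream had 1998 normalized counts in replicate 3 of p2 at day 6 (100 nM SAG), below the 2332 to 2469.6 of the other samples. Sox11 31.6 kb downstream had 26.0 normalized counts in replicate 3 of p2 at day 6 (100 nM SAG), above the 19.5 to 21.2 of the other samples.

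3 fall on 1 library of p0-1 at day 4, at TSS elements. Sox11 0.2 kb downstream had 2297 normalized counts in replicate 3 of p0-1 at day 4 (10 nM SAG), above the 1377 to 1658 of the other samples. Sox12 0.3 kb downstream had 6158 normalized counts in replicate 3 of p0-1 at day 4 (10 nM SAG), above the 3332 to 4258 of the other samples. Pou3f1 0.4 kb downstream had 2448 normalized counts in replicate 3 of p0-1 at day 4 (10 nM SAG), above the 865 to 1418 of the other samples.

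The other marks are spread over libraries. Sox4 1.4 kb downstream had 1631 normalized counts in replicate 1 of p3 at day 4 (100 nM SAG), above the 1208 to 1323 of the other samples. Sox11 433.2 kb upstream had 75.3 normalized counts in replicate 3 of p0-1 at day 6 (0 nM SAG), above the 4.23 to 15.5 of the other samples. Sox11 41.0 kb upstream had 12.8 normalized counts in replicate 1 of pMN at day 5 (100 nM SAG), above the 2.76 to 5.33 of the other samples. Sox11 41.0 kb upstream had 2.31 normalized counts in replicate 2 of p3 at day 6 (500 nM SAG), where the other samples had 0. Sox11 9.7 kb upstream had 57.6 normalized counts in replicate 1 of p2 at day 4 (10 nM SAG), above the 15.2 to 25.8 of the other samples. Sox11 9.7 kb upstream had 10.7 normalized counts in replicate 2 of p3 at day 5 (500 nM SAG), below the 18.3 to 20.6 of the other samples. Sox11 0.2 kb downstream had 2007 normalized counts in replicate 2 of p3 at day 6 (100 nM SAG), below the 2134 to 2148 of the other samples. Sox11 4.9 kb downstream had 69.3 normalized counts in replicate 2 of p3 at day 6 (100 nM SAG), above the 19.4 to 26.4 of the other samples. Pou3f1 26.6 kb upstream had 226 normalized counts in replicate 3 of p0-1 at day 5 (0 nM SAG), above the 110.2 to 147 of the other samples. Pou3f1 0.4 kb downstream had 909 normalized counts in replicate 1 of p3 at day 4 (500 nM SAG), below the 1354 to 1457 of the other samples. Pou3f4 0.4 kb downstream had 552 normalized counts in replicate 2 of p3 at day 6 (500 nM SAG), above the 455 to 468 of the other samples.

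At 2 of the named elements, the change from day 4 to 6 differed between p3 and each other type, in a limma test of the difference added after the values were seen. The cutoff was an adjusted p under 0.01 and a fold beyond 2, and the share of all elements passing it was not counted. At Sox4 20.9 kb upstream, p3 exceeded p0-1 by 1.89 on the log2 scale (limma adjusted p = 0.000299), p2 by 1.48 (limma adjusted p = 0.000674) and pMN by 1.46 (limma adjusted p = 0.00211). At Pou3f1 4.7 kb upstream the differences were -1.81, -1.66 and -1.51.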

How the results depend on the processing

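Counts of members called moved most with the thresholds. With a fold change beyond 2 they were 8 between NMPs and day 4, 12 from day 4 to 5, 5 from day 5 to 6, 1, 7 and 10 for p3 at days 4, 5 and 6, and 5 and 3 among the other types at days 5 and 6. With no minimum mean they were 24 between NMPs and day 4, 12 from day 4 to 5, 5, 12 and 15 for p3 at days 4, 5 and 6, and 4 and 3 among the other types at days 5 and 6. Leaving out 1 sample in turn gave 1 to 2 calls among the other types at day 5 and 0 to 1 at day 6, 4 to 5 between NMPs and day 4, 5 to 6 from day 4 to 5, 2 to 3 and 6 to 7 for p3 at days 5 and 6, and 0 elsewhere.

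With the replicate number as a block, 1 member was called between SAG concentrations, with numbers from the titles and from the descriptions. It is Sox11 4.9 kb downstream, higher at 10 than at 0 nM in p0-1 at day 6 (log2 fold change 1.10, limma adjusted p = 1.09e-06 and 0.000642). The 0 nM group held 2 samples, so few pairs stand behind this call, and the pairs differ between titles and descriptions. The block changed no other count. Same-numbered samples correlated above 0.1 in every pair in all 6 SAG comparisons with 3 pairs, but in 1 of 4 between NMPs and day 4.

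For single elements, 487 values without 1 sample and 442 under other settings kept direction and side of the threshold. Leaving out samples took 8 below the threshold and other settings 6. 1 value changed sign, the Pou3f1 TSS element in p3 against pMN at day 6, from -0.03 to 0.02 without replicate 2 of p3 at 500 nM, with a lowest value of -0.07 over the samples left out. Sox11 223.5 kb upstream in p0-1 against NMPs had an adjusted p of 0.0176 by limma voom. Causes were not tested. Elements with few reads limit the precision, since 28 members never reached the minimum mean.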
